A study of Mus musculus with 2 samples.

Results

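The forkhead (Fox) genes encode transcription factors that share a winged-helix DNA-binding domain. The genes described here were the protein-coding genes of GENCODE vM21 on the autosomes whose symbol starts with Fox, a letter from a to s and a digit, which gave 41 of 20780 genes. Foxp3, Foxo4 and Foxr2 on chromosome X and 3 non-coding genes with such names were left out. Chromatin accessibility at these genes was compared between lists of ATAC-seq peaks from the organ of Corti (OC), the sensory epithelium of the cochlea, of neonatal mice at P2. 1 list came from wild-type (WT) mice and 1 from Bmi1-/- littermates, homozygous for the constitutive null allele Bmi1 tm1Brn backcrossed to C57BL/6J. Each library was made from the 20 pooled cochleae of 10 mice, so that no spread between animals was measured, and no test between genotypes could be made. The intervals given below cover counting error only.

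Forkhead factors bind short A- and T-rich motifs with the core TGTTTAC. Different subfamilies act as pioneer factors that open chromatin (FoxA), as effectors of insulin signalling and oxidative stress (FoxO), as repressors in neural and immune development (FoxP) or as activators of the G2/M genes (FoxM1). In the ear, Foxi3 is needed for the otic placode and Foxi1 for ion transport in the endolymphatic epithelium. Bmi1 is a subunit of the Polycomb repressive complex PRC1, and many CpG-rich promoters of developmental regulators, forkhead genes among them, are known Polycomb targets in stem cells.

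Of the 77826 peaks under the WT label, 77596 lay on chromosomes 1 to 19, X and Y and were used, as were 100431 of the 100668 under the Bmi1-/- label. The peak names inside each list carry the prefix of the other genotype, so every direction below rests on the genotype that the labels give. The number of reads is known only through the local background, whose commonest value, solved from the peak statistics, was 6.32 reads in the WT list and 8.04 in the Bmi1-/- list, a ratio of 1.27. The numbers of peaks had a ratio of 1.29, so for a peak present only in the Bmi1-/- list depth and genotype cannot be told apart. The Bmi1 promoter itself carried peaks in both lists, at the 40.1st percentile in WT and the 92.0th in Bmi1-/-. The deleted part of the gene is not given in the sources used here, so these peaks do not check the labels. Marker promoters of hair cells (8 of 8) had a peak in at least 1 list, as did those of supporting cells (7 of 8), neurons (8 of 8), glia (5 of 7), mesenchyme (6 of 7), endothelium (7 of 8) and blood and macrophages (5 of 8), beside 76.8% of the promoters of all genes. How far other cell types contributed to the forkhead peaks was not tested.

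The sequences below are the stretches of DNA that lay under a peak in both lists, without any annotated exon, at the forkhead genes on which the results turn. They were read from the GRCm38 reference genome of RefSeq in the direction of transcription, and capitals mark CpG dinucleotides. The first 4 lie at gene starts or alternative starts.
Foxo3 (chr10:42276756-42276970, minus strand): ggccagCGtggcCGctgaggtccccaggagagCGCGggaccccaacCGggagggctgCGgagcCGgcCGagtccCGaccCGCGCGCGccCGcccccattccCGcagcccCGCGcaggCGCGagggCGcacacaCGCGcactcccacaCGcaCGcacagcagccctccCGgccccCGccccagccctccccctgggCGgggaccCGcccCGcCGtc
Foxj3 (chr4:119539846-119539977, plus strand): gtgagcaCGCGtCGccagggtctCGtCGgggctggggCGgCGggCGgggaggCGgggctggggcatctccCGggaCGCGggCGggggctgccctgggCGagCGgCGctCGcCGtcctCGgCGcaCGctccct
Foxp4 (chr17:47924646-47924740, minus strand): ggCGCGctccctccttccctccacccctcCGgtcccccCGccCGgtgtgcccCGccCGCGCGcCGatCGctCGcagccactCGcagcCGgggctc
Foxi3 (chr6:70956410-70956530, plus strand): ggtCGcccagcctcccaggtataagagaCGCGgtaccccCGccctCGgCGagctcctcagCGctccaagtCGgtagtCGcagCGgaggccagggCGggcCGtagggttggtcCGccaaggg
The next stretch belongs to a peak centred 1006 bp into Foxp1 and is followed by introns of Foxo1 and Foxk2.
Foxp1 (chr6:99521607-99521846, minus strand): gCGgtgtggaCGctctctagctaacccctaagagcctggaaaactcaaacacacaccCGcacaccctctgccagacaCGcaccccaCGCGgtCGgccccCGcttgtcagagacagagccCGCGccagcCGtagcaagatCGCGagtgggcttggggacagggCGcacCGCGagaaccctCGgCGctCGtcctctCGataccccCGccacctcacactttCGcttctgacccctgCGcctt
Foxo1 (chr3:52293223-52293462, plus strand): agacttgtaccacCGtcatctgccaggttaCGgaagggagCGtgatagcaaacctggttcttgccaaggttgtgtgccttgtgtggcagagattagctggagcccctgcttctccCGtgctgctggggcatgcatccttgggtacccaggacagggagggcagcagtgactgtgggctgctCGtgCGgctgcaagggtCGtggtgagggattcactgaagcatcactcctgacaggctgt
Foxk2 (chr11:121304839-121305038, plus strand): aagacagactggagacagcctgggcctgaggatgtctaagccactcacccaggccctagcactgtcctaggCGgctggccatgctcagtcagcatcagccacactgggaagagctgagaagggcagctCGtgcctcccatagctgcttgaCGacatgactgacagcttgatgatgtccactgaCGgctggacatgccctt
The Foxo3 stretch had a G+C content of 81.4% and 30 CpG in 215 bases, and the Foxj3 stretch had 81.8% and 21 CpG in 132 bases. The intronic stretches were poorer in CpG, with 7 in 240 bases at Foxo1 (58.8% G+C) and 4 in 200 bases at Foxk2 (58.5% G+C). None of these 7 stretches held the core TGTTTAC or its complement GTAAACA.

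The question was which forkhead promoters were accessible in the OC and whether the set differed between the genotypes. A promoter was the 3 kb on each side of any annotated transcription start site (TSS) of the gene. Of the 41 forkhead genes, 29 had a promoter peak in both lists (70.7%, 95% interval 54.5 to 83.9), beside 55.2% of all genes. Another 6 had one only in the Bmi1-/- list, beside 15.4% of all genes, and 3 only in the WT list, beside 6.23%. The remaining 3, Foxc2, Foxr1 and Foxs1, had a promoter peak in neither list, beside 23.2% of all genes. None of the 41 was without any peak in its promoter or gene region in both lists, beside 14.3% of all genes. The forkhead genes had a median of 1 annotated TSS, beside 3 for all genes, so all genes had more promoter windows each. With only the 5′ end of each gene, 28 of 41 had a peak in both lists, beside 46.5% of all genes. Then 6 had one only in Bmi1-/- (beside 18.4%), 3 only in WT (7.23%) and 4 in neither (27.9%).

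With a q-value under 0.05, a false discovery rate set within each library, 20 forkhead genes kept a peak in both lists, 11 were left with one in Bmi1-/- alone, 5 in WT alone and 5 in neither. Over all genes the shares at that threshold were 41.3% in both lists, 21.4% in Bmi1-/- alone, 5.93% in WT alone and 31.4% in neither. With a −log10 q of 5 or more, only Foxo3 and Foxj3 remained in both lists, with Foxn2 and Foxp1 in the Bmi1-/- list only and 37 genes in neither. Of all genes 3.37% were then in both lists, 15.1% in Bmi1-/- alone and 80.5% in neither.

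The forkhead genes were short, with a median length of 5.06 kb beside 17.6 kb for all genes, and for all genes as for the forkhead genes the class differed with length. Of the 16 longer than 10 kb, 15 had a promoter peak in both lists (93.8%, beside 65.7% of all genes of that length). Of the 25 that were 10 kb or shorter, 14 did (56.0%, beside 35.8%). The 6 genes with a promoter peak only in the Bmi1-/- list were all among the short ones, beside 17.3% of all short genes and 14.4% of all longer ones in that class. The split by length was chosen after the data were seen.

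The peaks of the 2 lists were often not at the same place. Among the 29 genes with promoter peaks in both lists, the strongest peaks overlapped by 1 bp or more at 13 (44.8%, 26.4 to 64.3), beside 55.6% of all genes with peaks in both lists. Any promoter peaks overlapped at 19 (65.5%, 45.7 to 82.1), beside 76.4%. At the other 10 genes, Foxa1, Foxa2, Foxd3, Foxd4, Foxe3, Foxh1, Foxi1, Foxi2, Foxl2 and Foxn1, each list had its own position.

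**Figure D1:**
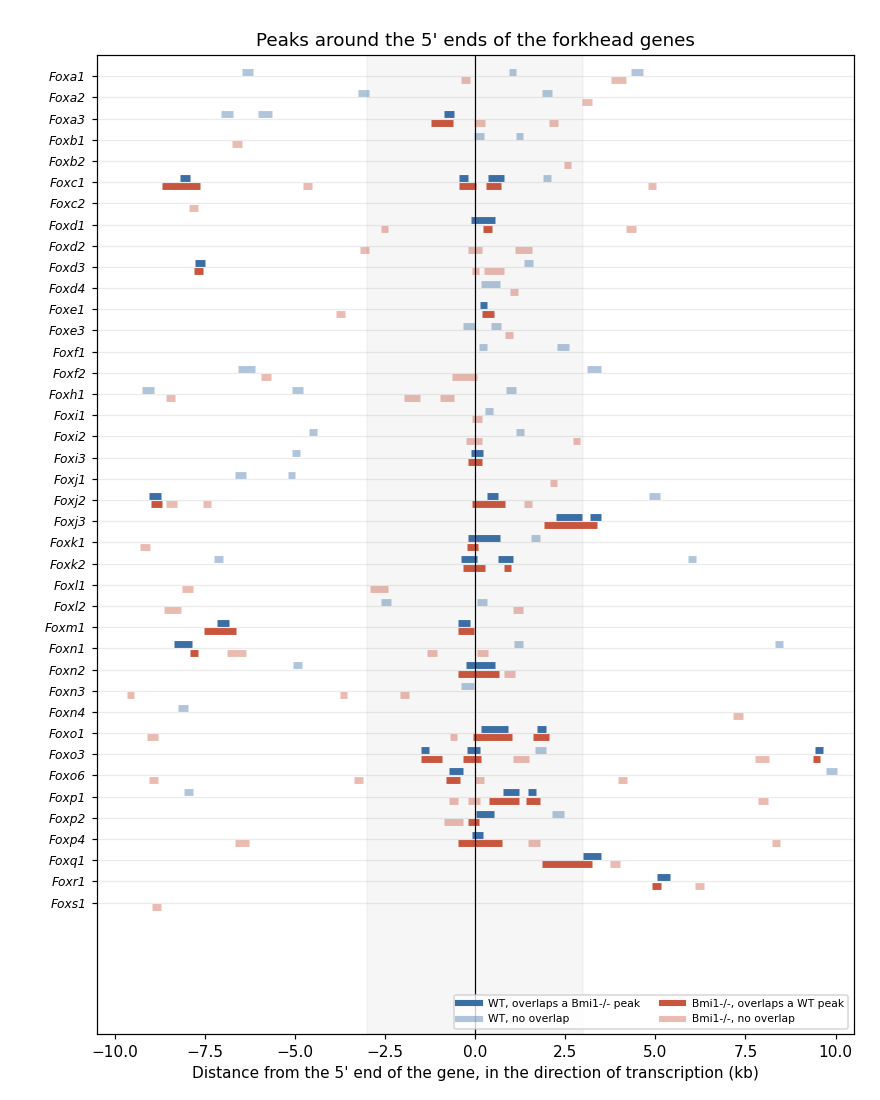
Peaks of the WT list (blue) and the Bmi1-/- list (red) within 10 kb of the 5′ ends of 40 forkhead genes, with the distance in kb along transcription on the x axis and bar length equal to peak width. Dark bars overlap a peak of the other list by 1 bp or more, and grey shading marks 3 kb to each side of the 5′ end. Foxe1 and Foxi3 show dark bars of both lists at the gene start, whereas Foxa1, Foxi2 and Foxl2 show only pale bars.

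Peak strength was compared by rank, because the statistics of libraries of unlike depth are not on a common scale. The rank was the percentile of a gene's strongest promoter peak by −log10 p within its own list. The median percentile of the forkhead genes was 75.0 in the WT list (n = 32 genes) and 81.8 in the Bmi1-/- list (n = 35), beside 76.9 and 87.4 for all genes with such a peak. In the top 10% of the WT list lay 9 of the 41 forkhead genes, beside 19.2% of all genes, and in that of the Bmi1-/- list lay 11, beside 32.0%. The strongest peak ranked higher in the Bmi1-/- list at 16 of 29 forkhead genes (55.2%, 35.7 to 73.6), beside 67.6% of all genes. A difference of 20 percentile points or more was found at 10 in favour of the Bmi1-/- list, beside 29.7% of all genes with peaks in both lists, and at 6 in favour of the WT list, beside 10.6%. At 11 of these 16 genes the strongest peaks of the 2 lists did not overlap, so that different sites were compared.

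**Figure D2:**
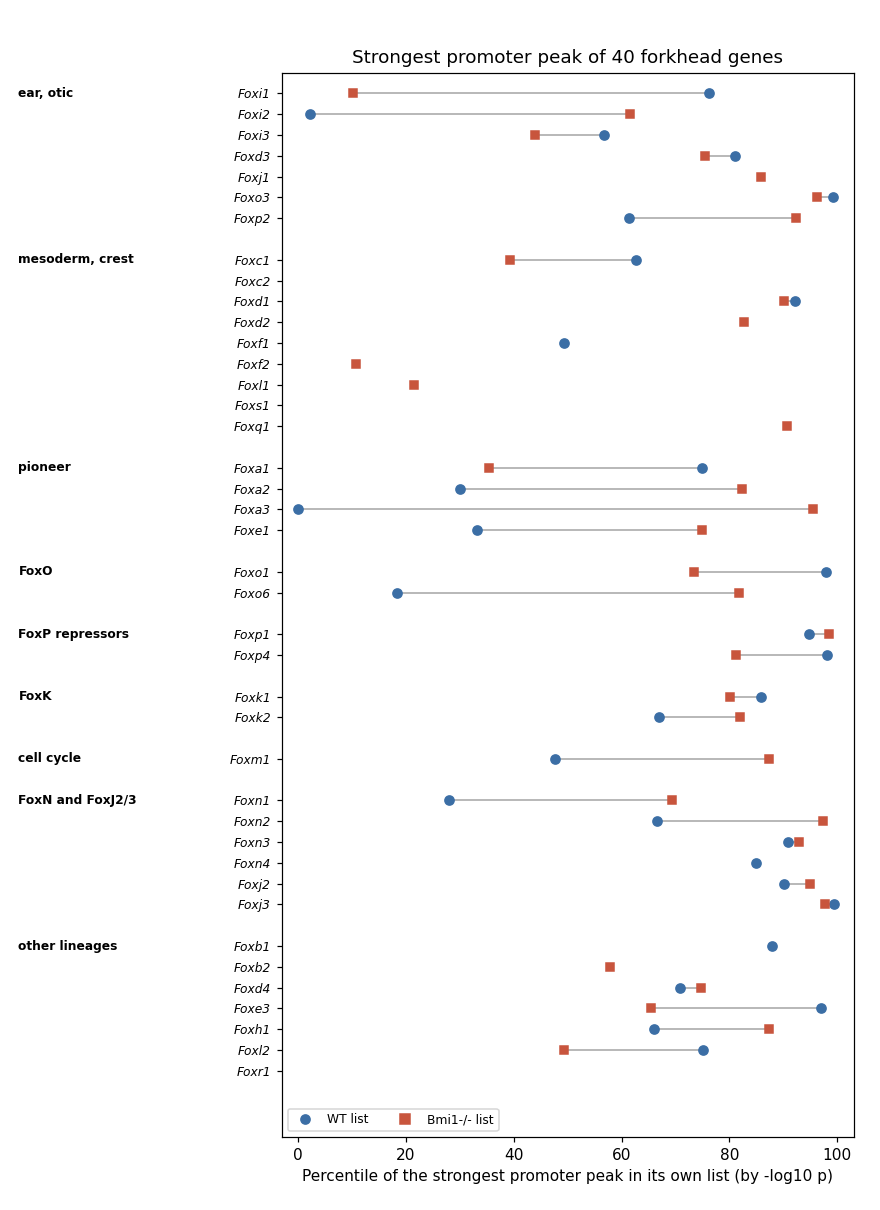
Percentile of the strongest promoter peak of 40 forkhead genes within its own list by −log10 p, for the WT list (blue circles) and the Bmi1-/- list (red squares), grouped by role, with a grey line joining the 2 lists. Foxo3 and Foxj3 lie above the 96th percentile in both lists, Foxa3 spans almost the whole range, and Foxc2, Foxr1 and Foxs1 have no point. Foxo3 and Foxp2 are drawn with the genes of the ear.

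Foxo3, a stress-responsive FoxO factor that is needed to keep hearing in ageing mice, had the most reads among the strongest forkhead promoter peaks. Its TSS peak (gene at chr10:42181841-42276755, minus strand) had 39 reads at the summit in the WT list and 44 in the Bmi1-/- list, at the 99.1st and 96.2nd percentiles, and covered the CpG-rich stretch printed first. Fold enrichment over the local background was 3.35 and 2.74. A second shared promoter peak was centred 1388 bp upstream in WT and 1204 bp upstream in Bmi1-/-, at the 64.2nd and 80.0th percentiles. Its sites were thus present in both genotypes, and their percentiles differed by less than 20 points. Within the body of Foxo3 the lists agreed less. An intronic WT peak at the 97.8th percentile (chr10:42216848-42217168) had no counterpart, and neither did a Bmi1-/- peak at the 94.3rd (chr10:42268606-42268986).

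Foxo1, the main FoxO effector of insulin signalling, ranked lower in the Bmi1-/- list. Its TSS peak was at the 97.8th percentile in the WT list (31 reads) and at the 73.5th in the Bmi1-/- list (28 reads), although the peak was wider there, at 1087 bp against 749 bp. In contrast, the first-intron peak printed above was at the 87.8th percentile with 21 reads in the WT list and at the 96.4th with 30 reads in the Bmi1-/- list. Foxo6, a brain-enriched FoxO factor, moved the other way, from the 18.3rd to the 81.8th percentile. Its strongest peaks were at different sites. At the site 533 bp upstream of the TSS, where both lists had a peak, the values were 21 and 31 reads.

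Among the FoxP repressors, Foxp4 had a TSS peak at the 98.1st percentile in the WT list (32 reads) and the 81.2nd in the Bmi1-/- list (30 reads). Foxp1, which acts in neural, heart and immune development, had strong promoter peaks in both lists at the 94.8th and 98.4th percentiles, at different starts of the same gene. Foxp1 has 22 annotated TSSs, so more of its peaks count as promoter peaks than at most forkhead genes, whose median is 1, beside 3 for all genes. The strongest peak of the Bmi1-/- list (chr6:99027332-99028599) was 1268 bp wide, with 35 reads at the summit, and lay at an internal start 494755 bp into the gene. The overlapping WT peak of 200 bp had 15 reads and was at the 9.68th percentile. At the shared peak near the 5′ end, whose sequence is printed above, the counts were 22 reads in WT and 36 in Bmi1-/-, at the 90.6th and 97.2nd percentiles.

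Foxp2, a gene for vocal motor learning listed here with the ear genes, had its strongest WT peak 270 bp downstream of the 5′ end (61.3rd percentile, 19 reads), where it overlapped a peak of the Bmi1-/- list (19.8th percentile, 21 reads). The strongest peak of the Bmi1-/- list lay at another site, 597 bp upstream of the TSS (chr6:14900486-14901017), at the 92.3rd percentile with 30 reads, and had no counterpart in the WT list.

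Of the other genes with roles in the ear, Foxi3 had 1 promoter peak in each list, over the TSS and the CpG-rich stretch printed above, at the 56.8th percentile with 18 reads in WT and the 44.0th with 20 reads in Bmi1-/-. Foxi1 had 1 promoter peak in each list without an overlap, 373 bp downstream of the TSS in WT (76.2nd percentile, 22 reads) and 52 bp downstream in Bmi1-/- (10.3rd percentile, 20 reads). The latter had a −log10 q of 0.82. Foxi2 had a weak WT peak (2.27th percentile, 14 reads) 1240 bp downstream and a Bmi1-/- peak at the TSS (61.5th percentile, 22 reads).

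Foxd3, a neural crest factor that also marks glial precursors, had no overlapping promoter peaks, at the 81.0th percentile in WT and the 75.4th in Bmi1-/-. Foxj1, the regulator of motile cilia, had a promoter peak only in the Bmi1-/- list (85.9th percentile, 32 reads), 2167 bp downstream of its TSS, and 2 weak WT peaks upstream. The 8 genes with roles in the ear together had 31 region peaks in the WT list and 30 in the Bmi1-/- list.

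The genes with roles in mesoderm, neural crest and mesenchyme were all 10 kb or shorter, a length at which 35.8% of all genes had a promoter peak in both lists. Of these 9, only Foxc1 and Foxd1 did, 4 had them only in Bmi1-/- (Foxd2, Foxf2, Foxl1 and Foxq1) and Foxf1 only in WT. Of all genes of that length, 17.3% had a promoter peak only in Bmi1-/- and 8.33% only in WT. Foxd1, a stromal factor of kidney and retina, was at the 92.1st percentile in WT (22 reads) and the 90.1st in Bmi1-/- (27 reads). Foxc1, a factor of neural crest mesenchyme, was at the 62.6th (23 reads) and the 39.4th (24 reads). Weak peaks set the class of Foxf2 (10.8th percentile, 24 reads) and Foxl1 (21.5th percentile, 23 reads), both with a q-value over 0.05. Foxd2 had a Bmi1-/- peak across its TSS (82.6th percentile, 30 reads) and no WT peak in its region. Foxq1 had a broad Bmi1-/- peak of 1385 bp (90.7th percentile, 31 reads) centred 2550 bp downstream of the TSS. It overlapped a WT peak (65.4th percentile, 21 reads) whose centre, at 3232 bp, was just outside the promoter, so the class of Foxq1 was set by the edge of the window. Foxf1, a mesenchymal target of hedgehog signalling, had 2 WT peaks, the stronger at the 49.3rd percentile with 22 reads, while its region held no peak of the Bmi1-/- list.

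Several of these genes are neighbours. The 66.3 kb around Foxf1, Foxc2 and Foxl1 on chromosome 8 held 4 WT and 7 Bmi1-/- peaks, of which 1 in each list was shared. The 276 kb around Foxq1, Foxf2 and Foxc1 on chromosome 13 held 18 and 26, of which 4 in each list were shared. For all genes, 28.8% of the WT and 21.9% of the Bmi1-/- peaks in promoters or regions were shared. The single peak in the region of Foxc2, whose promoter had none, lay 8 bp from the TSS of the neighbouring gene Mthfsd. Foxs1 likewise had a single upstream peak, in the Bmi1-/- list (39.9th percentile), and the peaks of Foxr1 were in its exons, 1 in WT (77.8th percentile, 20 reads) and 2 in Bmi1-/-, of which 1 was shared (38.5th percentile, 21 reads).

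The FoxA pioneer factors and the thyroid factor Foxe1 all had promoter peaks in both lists, but only Foxe1 had its strongest peaks at one place (33.3rd percentile and 17 reads in WT, 74.9th and 24 reads in Bmi1-/-). Foxa3 had the largest rank difference of all forkhead genes. Its only WT promoter peak, 734 bp upstream, was at percentile 0.0773 with 17 reads and lay 105 bp from a TSS of Sympk. In the Bmi1-/- list a peak 121 bp downstream of the Foxa3 TSS was at the 95.4th percentile with 38 reads. At the shared site near Sympk the counts were 17 and 33 reads. Foxa2 had unshared peaks at the 30.0th percentile (18 reads) in WT and the 82.3rd (27 reads) in Bmi1-/-, and Foxa1 at the 74.9th (22 reads) and the 35.4th (25 reads).

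Foxm1, the activator of the G2/M genes, had a promoter peak with 20 reads in WT and 31 in Bmi1-/- (47.6th and 87.3rd percentiles). The centre of the peak lay 44 and 22 bp from a TSS of Rhno1, which starts beside Foxm1, so the peak cannot be given to Foxm1 alone. A stronger shared peak was centred 7007 bp upstream in the WT list, at the 97.2nd and 96.0th percentiles with 26 and 36 reads. Its centre lay 44 bp from a TSS of Gm26770 in WT and 35 bp from a TSS of Tulp3 in Bmi1-/-, so this peak too cannot be given to Foxm1. Of the FoxK factors, Foxk2 had a shared TSS peak (67.0th and 82.0th percentiles, 22 and 28 reads) and the shared intronic site printed above (50.6th and 91.4th percentiles, 18 and 26 reads). Foxk1 had shared TSS peaks with 25 and 28 reads (78.8th and 80.1st percentiles), and its highest-ranked WT peak, at the 85.8th percentile, lay 1676 bp downstream without a counterpart.

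The FoxN and FoxJ2/3 genes had a median percentile of 87.5 in WT and 95 in Bmi1-/-. Foxj3 had the highest mean percentile of all forkhead promoters, at the 99.3rd and 97.7th percentiles with 32 and 34 reads. The single Bmi1-/- peak of 1464 bp covered both WT peaks there, including the CpG-rich stretch printed above. Foxj2 had 25 and 35 reads at its TSS (90.1st and 95th percentiles). Further upstream, 3 Bmi1-/- peaks at the 98.3rd, 96.8th and 92.1st percentiles lay 94, 323 and 1292 bp from a TSS of Gm5112. The one at the 98.3rd percentile (37 reads) overlapped a WT peak at the 13.7th percentile with 16 reads. Foxn2 had a wide shared TSS peak of 814 bp in WT and 1148 bp in Bmi1-/- (66.5th and 97.4th percentiles, 19 and 33 reads). Foxn3, a checkpoint-related repressor, was at the 90.9th and 92.9th percentiles (24 and 29 reads), at sites 207 and 1952 bp upstream that did not overlap. The WT site was 7 bp from a TSS of Gm26839. Foxn1, the factor of thymic epithelium, was at the 28.0th and 69.3rd, and the retinal and spinal factor Foxn4 had a promoter peak only in WT (85.0th percentile, 23 reads), 1911 bp from an alternative start.

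Among the remaining lineage factors, Foxb1 of the hypothalamus had 2 WT promoter peaks, the stronger at the 87.8th percentile with 21 reads, whereas its only Bmi1-/- peak was 6611 bp upstream (88.6th percentile, 25 reads). Foxb2 had 1 Bmi1-/- peak (57.8th percentile, 21 reads) 146 bp from a TSS of AC128703.1. The lens factor Foxe3 was at the 97.0th percentile in WT (27 reads) and the 65.5th in Bmi1-/- (23 reads), at different sites. Foxd4 was at the 70.8th and 74.8th percentiles and the ovarian factor Foxl2 at the 75.0th and 49.3rd. Foxh1, a partner of Smad2 in nodal signalling, was at the 66th and 87.4th, and its Bmi1-/- peak lay 53 bp from a TSS of Ppp1r16a.

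At the 19 forkhead genes with a promoter peak shared by the 2 lists, the reads at the summit were compared directly after scaling by the ratio of the backgrounds. For each gene the strongest WT promoter peak that overlapped a Bmi1-/- peak was taken, with its strongest Bmi1-/- partner. This choice by the WT peak favours a high WT count, at the forkhead genes as at all genes. At Foxp1 it took the pair near the 5′ end and not the pair at the internal start. The median ratio of Bmi1-/- to WT was 0.965 (n = 19), beside 1.06 over all 8772 genes with such a pair. The ratio was over 1 at 9 of 19 (47.4%, 24.4 to 71.1), beside 60.9%. Foxk2, at 1.0, was counted among the 9. It ranged from 0.71 at Foxo1 (0.41 to 1.22) to 1.53 at Foxa3 (0.826 to 2.92). Every one of the 19 intervals included 1, so none of these 19 pairs differed beyond counting error at this depth. Without scaling the median was 1.23, beside 1.35 over all genes with such a pair, and 16 of 19 were over 1.

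**Figure D3:**
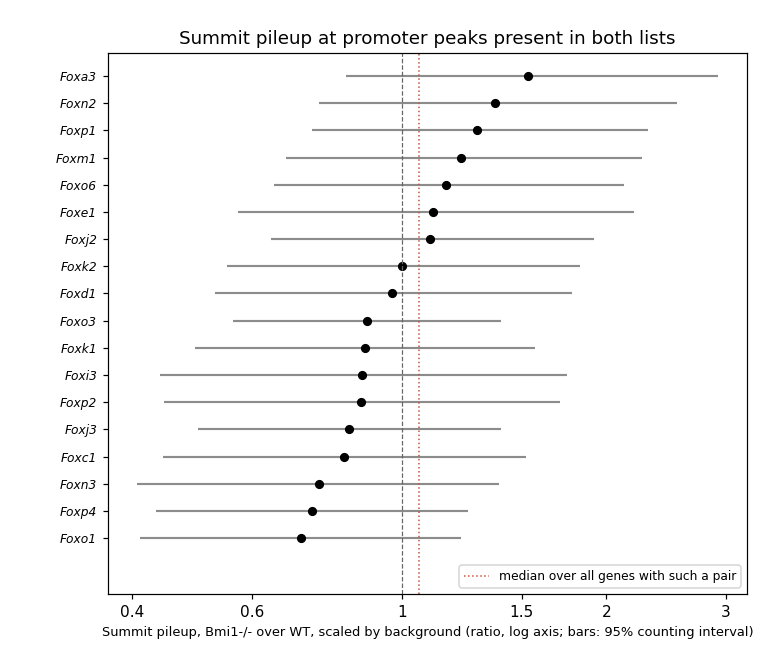
Ratio of summit reads, Bmi1-/- over WT, at a shared promoter peak of 18 forkhead genes after division by the ratio of the commonest backgrounds. The pair is the strongest WT promoter peak that overlaps a Bmi1-/- peak, with its strongest Bmi1-/- partner. The axis is logarithmic, and bars are exact 95% counting intervals. All 18 intervals cross 1 (dashed line), and the dotted line is the median of all genes with such a pair, 1.06.

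The region of each gene, its body and the 10 kb upstream, was then examined. The forkhead regions held 179 WT peaks and 217 Bmi1-/- peaks, a ratio of 1.21, beside 1.25 for all genes. When the Bmi1-/- list was shortened to the length of the WT list the ratio became 0.872, beside 0.989 for all genes. Equal lengths bring the ratio over all genes close to 1 by construction, so this setting cannot tell depth from genotype. With a q-value under 0.05 the ratio was 1.4, beside 1.51 for all genes. In each of these settings the forkhead ratio was below that of all genes. Per 100 kb of region there were 6.83 and 8.28 peaks, beside 4.74 and 5.93 for all genes. Of the WT peaks in promoters or regions, 59 of 179 overlapped a Bmi1-/- peak (33.0%, 26.1 to 40.4), beside 28.8% for all genes. Of the Bmi1-/- peaks, 56 of 219 overlapped a WT peak (25.6%, 19.9 to 31.9), beside 21.9%.

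A larger share of the peaks in promoters than in introns was found in both lists. In promoters 53.3% of the WT peaks (40 to 66.3, n = 60) and 44.3% of the Bmi1-/- peaks (32.4 to 56.7, n = 70) were shared, beside 48.8% and 36.7% for the promoters of all genes. In introns the shares were 18.2% (10.8 to 27.8, n = 88) and 15.1% (8.88 to 23.4, n = 106). Beside these stand 15.4% and 12.1% for the peaks of all gene regions outside promoters, introns and other parts together. Upstream peaks had 31.8% (n = 22) and 22.2% (n = 27), and exon peaks 44.4% (n = 9) and 18.8% (n = 16). Promoter peaks also ranked higher, with median percentiles of 61.9 in WT and 71.4 in Bmi1-/-, against 40.1 and 46.5 in introns. Location and strength were thus not separated. Of the forkhead peaks, 0 of 179 in WT and 7 of 219 in Bmi1-/- (3.20%) were 1 kb or wider, beside 0.484% and 2.31% of the peaks of all genes. The 7 lay at Foxc1, Foxj3, Foxn2, Foxo1, Foxp1, Foxp4 and Foxq1.

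**Figure D4:**
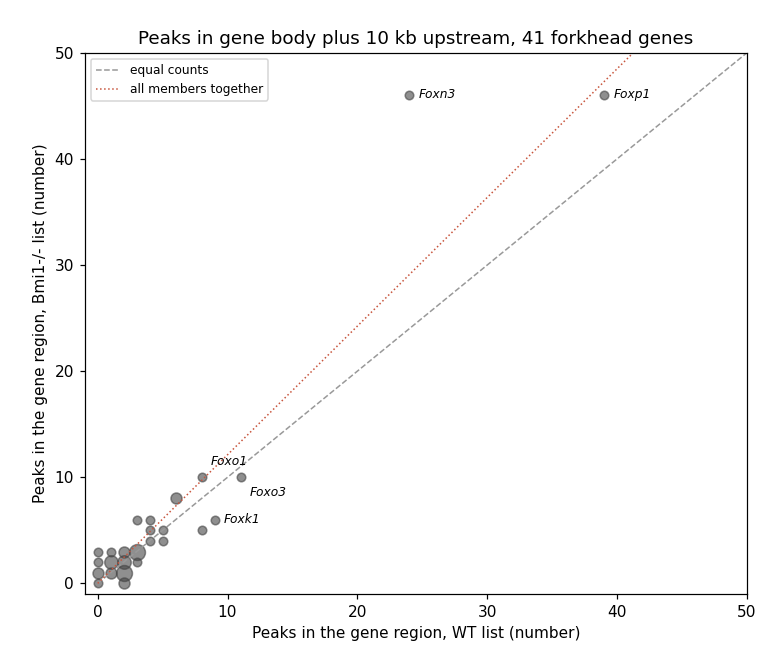
Number of peaks in the body and 10 kb upstream of each forkhead gene in the WT list (x axis) and the Bmi1-/- list (y axis), with larger points where several genes coincide. The dashed line marks equal counts and the dotted line the ratio over all 41 genes, 1.21. Foxn3, with 24 and 46 peaks, lies farthest above both lines.

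Foxp1, Foxn3, Foxo3, Foxo1 and Foxk1 had the most region peaks. Foxn3 (chr12:99190078-99563582, 373505 bp) had 24 in WT and 46 in Bmi1-/-, so that 65.7% of its peaks (53.4 to 76.7) came from the Bmi1-/- list. Of the 1084 genes with at least 20 region peaks over both lists, 111 had a higher share, and the median share was 55.6%. With a q-value under 0.05 the counts were 10 and 26, and with lists of equal length 24 and 34. In 4 equal parts of 93.4 kb from the 5′ end, Foxn3 had 3, 5, 5 and 10 WT peaks and 13, 13, 9 and 8 Bmi1-/- peaks. The WT count was thus highest in the 3′ part and the Bmi1-/- counts in both 5′ parts, and 7 WT and 6 Bmi1-/- peaks were shared.

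Foxp1 (chr6:98925338-99522721) had 39 and 46 peaks, with 54.1% from the Bmi1-/- list (43.0 to 65.0), close to the median of 55.6%, and 10 in each list were shared. A shared intronic peak 95881 bp from its 5′ end was at the 87.8th percentile in WT and the 78.0th in Bmi1-/-. Foxo3 had 11 and 10 region peaks, Foxo1 8 and 10 and Foxk1 9 and 6. Foxp2 had 6 and 8 across 540629 bp, of which 1 in each list was shared.

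**Figure D5:**
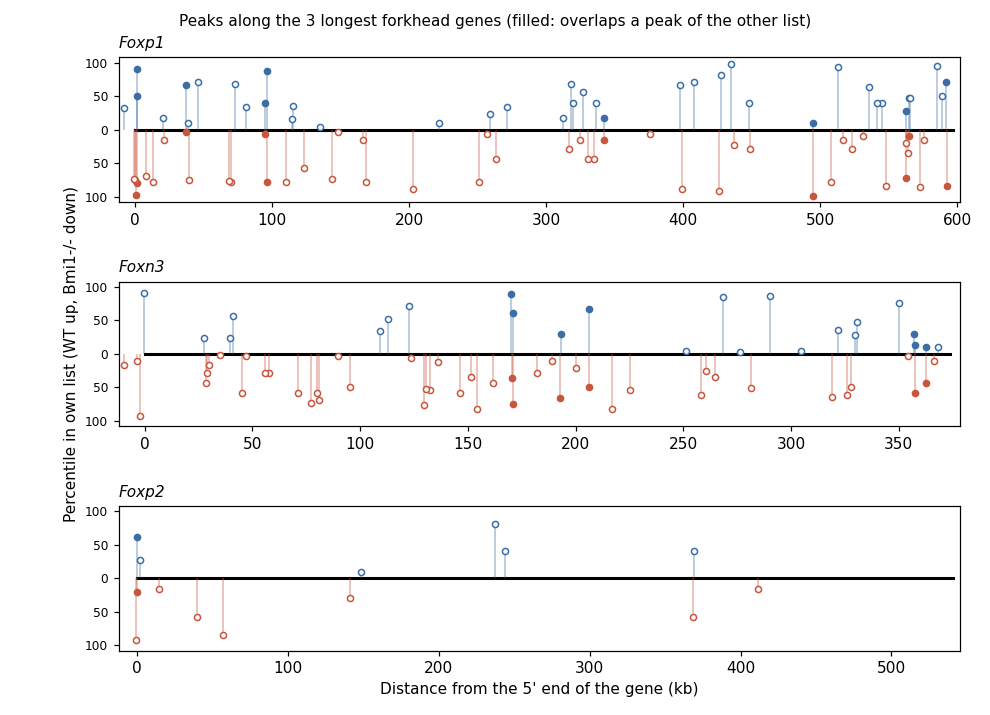
Peaks along Foxp1, Foxn3 and Foxp2 by distance from the 5′ end in kb (x axis), with the percentile in the WT list drawn upward in blue and that in the Bmi1-/- list drawn downward in red. Filled points overlap a peak of the other list, and the black line is the gene body. Most points are open, and between 60 and 100 kb Foxn3 has red points only.

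Promoter sequence was described in RefSeq sequences of 300 bases around the start, which matched 26 of the 41 forkhead genes and 15687 of all genes. The forkhead promoters had a median G+C content of 65.5% and a median ratio of observed to expected CpG of 0.733, beside 57.0% and 0.602 for all promoters. A promoter was called CpG-rich at a G+C content of 55% or more and a CpG ratio of 0.6 or more, a split chosen after the data were seen. This held for 18 of 26 forkhead promoters (69.2%), beside 43.4%. Of the 18, 14 had a peak in both lists (77.8%), beside 82.0% of all CpG-rich promoters. Of the other 8, 7 did (87.5%), beside 38.1%. At Foxa2, Foxd4, Foxe3, Foxi1, Foxi2 and Foxn1, which are among these 7, no promoter peaks of the lists overlapped. The Foxn3 sequence (chr12:99450025-99450324) was from a start inside the gene body.

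The forkhead core TGTTTAC, searched on both strands with its complement GTAAACA, was rare. Among the 26 promoters only that of Foxa1 held it (3.85%, beside 3.02% of all promoters of that length). The shorter TGTTT or its complement AAACA, which the core contains, was in 11 of 26 (42.3%, beside 45.3%). Within 100 bp of the summit the core was found in 4 of 179 WT peaks (2.23%, 0.612 to 5.62) and 3 of 219 Bmi1-/- peaks (1.37%, 0.283 to 3.95), beside 1.72% and 1.87% of the peaks of all genes. In windows 1 kb away from the summits of the forkhead genes the shares were 3.35% and 3.20%, beside 2.57% and 2.62% for all genes. The share was thus lower at the summits for all genes as well.

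Over the whole width of the peaks, 7 of 179 WT peaks (3.91%) and 4 of 219 Bmi1-/- peaks (1.83%) held the core. Of the peaks of all genes, 1325 of 50856 in WT and 1933 of 63989 in Bmi1-/- did. The following stretches show the 3 matches under the peaks of highest rank, with the core in capitals, read in the direction of the gene. The first is under the upstream Foxp2 peak of the Bmi1-/- list, 358 bp from its summit, the second under an intronic Foxp1 peak of that list at the 78.0th percentile, and the third under the intronic Foxk1 peak of the WT list at the 73.9th.
Foxp2 (chr6:14900926-14901012, plus strand): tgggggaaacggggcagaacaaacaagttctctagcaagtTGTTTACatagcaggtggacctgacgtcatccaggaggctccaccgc
Foxp1 (chr6:99271606-99271692, minus strand): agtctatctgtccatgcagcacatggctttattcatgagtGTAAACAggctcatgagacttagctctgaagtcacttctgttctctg
Foxk1 (chr5:142440515-142440601, plus strand): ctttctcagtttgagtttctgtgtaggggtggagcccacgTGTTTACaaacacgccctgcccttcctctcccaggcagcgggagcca
The Foxk1 peak overlapped Bmi1-/- peaks, but the core was outside the overlap. The Foxp2 and Foxp1 peaks had no counterpart in the WT list.

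Genes that act with forkhead factors were described by the same promoter classes, in lists from general knowledge. All 19 genes listed as regulators of FoxO activity, such as Akt1, Akt2 and Sirt1, had a promoter peak in both lists. Their median percentiles were 93.8 in WT and 96.8 in Bmi1-/-. Pdk1, a gene for a pyruvate dehydrogenase kinase, was counted among the 19 beside Pdpk1 and enters these medians. Of 18 FoxO targets, 17 had a promoter peak in both lists. Pdk4, a kinase that limits glucose oxidation, had one only in Bmi1-/- (78.0th percentile). Beside these, 55.2% of all genes had a promoter peak in both lists.

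Of 12 FoxM1 targets, genes of mitosis, 8 were in both lists. Plk1 (82.1st percentile), Top2a (78.0th) and Birc5 (62.0th) had a promoter peak only in Bmi1-/- and Cenpa (31.1st) only in WT. Of 6 FoxI1 targets, among them the anion exchanger gene Slc26a4, 5 were in both lists and Slc4a1 in neither. Of 11 FoxJ1 targets, genes of ciliary motility, 7 were in both, Dnah9 (97.5th percentile) and Ccdc39 (84.3rd) only in Bmi1-/-, and Dnah5 and Spag6l in neither. Of 18 partners, 13 were in both, Gata4 (62.6th) only in Bmi1-/- and Eya1 (23.3rd) only in WT, with Dlx5, Pax3 and Sox10 in neither. For all genes these shares were 55.2% (both), 15.4% (Bmi1-/- alone), 6.23% (WT alone) and 23.2% (neither). Whether any of these short gene lists differed from those shares was not tested.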

How the data were processed

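ATAC-seq, which marks open chromatin by transposase insertion, was done on the OC of P2 WT and Bmi1-/- mice, with 1 library per genotype. The authors mapped the reads to mm10 (BWA-MEM), MACS2 gave the peaks of either library, and the submitters' notes also name FastQC and HOMER. Tool versions, the handling of duplicate and mitochondrial reads and any shift of reads to the insertion site are not given in the sources used here. The deposited peak lists hold, for each peak, its position, an integer score, a fold enrichment, the −log10 p-value, the −log10 q-value and, as another column, the offset of the summit. No read totals stand in the deposited lists. Summit reads (pileup) and local background were worked back from fold enrichment and −log10 p, taking a pseudocount of 1 and a Poisson tail, and for all but 2 peaks in each list a whole number of reads gave the deposited −log10 p to within 0.01% of its value.

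Genes of GENCODE vM21 were given the peaks whose centre lay in their promoter or region. Distances were measured from the centre of the peak to the nearest TSS of the gene, or to its 5′ end where so stated. Percentiles were taken within each list. The script was tested on simulated data. Shares of members carry exact (Clopper-Pearson) 95% binomial intervals, and no p-value was computed, since each genotype had 1 library. The members and the gene lists were chosen with earlier results of these data known. The genes are named, except for 1 that is counted in every total but not reported here, with full values for those with a promoter peak in 1 list only or in neither, the 6 of highest mean percentile, the 5 of largest difference, the 5 with the most region peaks and the ear genes. Of the other gene lists, genes with a promoter peak in 1 list only were named. Alternatives were a q-value under 0.05, a −log10 q of 5 or more, the same number of peaks in each list, other windows, fold enrichment as the rank, a reciprocal overlap and other scalings. Python 3.11.15, numpy 2.4.6, pandas 2.3.3, scipy 1.17.1, matplotlib 3.10.9 and samtools 1.23.1 were used.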

Additional observations from a re-analysis of the deposited data

How the results depend on the processing

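Of 161 alternative values, 123 stayed within these limits, which leave room for change: counts, ratios and all-gene shares within 1.5 times, forkhead shares inside the 95% interval, rank differences with the same sign and 20 points or more, and median read ratios on the same side of 1. Another 31 moved past them, 3 rank differences fell under 20 points and 4 values changed direction. No paired analysis was possible because each genotype had 1 library, and for the same reason no library could be left out. With a q-value under 0.05, 11 forkhead genes had a promoter peak only in Bmi1-/-, 5 only in WT and 5 had none, and region peaks numbered 94 in WT and 132 in Bmi1-/-, fewer peaks being used. With a −log10 q of 5 or more the classes were 2 in both, 2 only in Bmi1-/-, 0 only in WT and 37 in neither. With both lists cut to equal length 5 genes had none (all genes 25.2%), and the ratio of region peaks turned from 1.21 to 0.872 (all genes 0.989). With a 1 kb window 5 were only in WT (all genes 5.81%) and 8 in neither (all genes 31.8%). In that window 6 of 23 ranked 20 points or more higher in Bmi1-/- (all genes 30.5%), and the difference of Foxh1 became -30.8. With peaks given only to the nearest TSS 5 were in neither (all genes 26.3%). A reciprocal overlap of 50% left 16.2% of WT and 13.2% of Bmi1-/- region peaks shared. Over all genes both shares fell past the limits too, to values slightly below these, so the drop was not particular to the forkhead genes. Without scaling 84.2% of shared promoters had a ratio over 1 and the median ratio was 1.23 (all genes 1.35). The splits by gene length and CpG content were chosen after seeing the data. Under fold enrichment as the rank the differences of Foxc1 (-10.4) and Foxl2 (-11.0), and with lists of equal length that of Foxh1 (17.8), fell under 20 points. Where no construction of the alternative shows it, the cause was not tested. With 14 to 44 reads at the strongest promoter peaks, the counting intervals of single ratios all included 1.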

Other observations

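Several peaks of high rank near forkhead genes lay outside the promoters. A shared peak centred 7007 bp upstream of Foxm1 in the WT list was at the 97.2nd percentile in WT and the 96.0th in Bmi1-/-, and lay 44 bp from a TSS of Gm26770 in WT and 35 bp from one of Tulp3 in Bmi1-/-. A peak 6318 bp upstream of Foxa1 was at the 93.2nd percentile in the WT list, with 24 reads, and had no counterpart. About Foxc1, a peak 8053 bp upstream was shared, with 17 reads at the 3.57th percentile in WT and 32 reads at the 90.5th percentile in Bmi1-/-, and its centre lay 1041 bp (WT) and 933 bp (Bmi1-/-) from a TSS of Gm11379. The Foxd2 and Foxe3 interval of 39.7 kb on chromosome 4 held 3 WT and 4 Bmi1-/- peaks, of which 0 overlapped. Over all genes, 28.8% of the WT and 21.9% of the Bmi1-/- peaks in promoters or regions overlapped the other list. Of the member peaks, 66 of 179 in WT and 79 of 219 in Bmi1-/- had a TSS of another gene as the nearest. The same share over the peaks of all genes was not computed, so these counts show nothing particular to the forkhead genes. The genes named here were chosen after their values were seen.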
